A study of Mus musculus with 30 samples.

Results

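The cytosolic ribosomal protein (RP) genes were followed across 8 organs of healthy and arthritic mice. Members were gene rows with an Rpl or Rps symbol followed by digits (with an optional final a, x or l), Rplp0 to Rplp2 and Rpsa, if annotated as protein-coding. This gave 80 of 23013 gene rows, 49 of the large subunit and 31 of the small subunit. Another 2 rows had such a symbol but were annotated as pseudogenes and were left out. The cells came from male DBA1/J mice, and their RNA was read with Seq-Well, which captures the mRNA of single cells on barcoded beads in small wells. Mice with collagen-induced arthritis (CIA) had been injected with bovine collagen II (100 µg) plus adjuvant, with a booster on day 20, and the controls had received PBS by the study's methods. Arthritis scores were 8 in S1 and S2, 3 to 4 in S6, 3 in S7 and 0 in H3, H4, H6 and H7, the healthy mice. Blood (mononuclear cells) and lymph node came from 4 healthy and 3 CIA mice each. The CIA mice were S2, S6 and S7 for blood and S1, S2 and S7 for lymph node. Spleen, thymus, joint, lung, muscle and skin came from 1 mouse per state (S1 against H6, or H3 for joint).

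The ribosome is built from ribosomal RNA and one copy of most RPs, so RP mRNAs are abundant in nearly every cell. Many RP mRNAs start with a run of pyrimidines, the 5′ terminal oligopyrimidine (TOP) tract, through which mTOR signalling controls their translation. RP mRNAs have also been copied back into the mammalian genome many times, which leaves pseudogenes that differ little from the parent gene.

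That likeness mattered for these values. Of 3635 pseudogene rows, 583 matched the transcripts of 73 members at 90% identity or more. The 80 members held 10.2% of all units and the 583 copies 12.6%, where a unit is 1 step of the deposited smoothed UMI signal. In 46 of 80 members the copies together held more units than the gene itself. The middle 60 bases of the most abundant copy are shown for the 2 members with the most copy units, Rps19 and Rpl35, beside the same stretch of the gene and of a second copy. Capitals mark bases that differ from the gene.
Rps19: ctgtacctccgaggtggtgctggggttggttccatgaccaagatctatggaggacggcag
Rps19-ps6: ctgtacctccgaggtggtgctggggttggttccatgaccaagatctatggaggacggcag
Rps19-ps3: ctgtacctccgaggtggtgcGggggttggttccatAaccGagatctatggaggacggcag
Rpl35: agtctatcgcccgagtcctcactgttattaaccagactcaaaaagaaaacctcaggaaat
Gm2000: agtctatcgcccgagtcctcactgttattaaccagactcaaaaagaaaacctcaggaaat
Gm4342: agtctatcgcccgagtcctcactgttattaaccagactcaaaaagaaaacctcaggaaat

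In this window Rps19-ps3 differed from Rps19 in 3 bases, and the other 3 copies in 0. Rps19 (chr7:24884592-24889811, GRCm38.p6) held 647594 units, Rps19-ps6 (chr12:110898079-110898588) 204488 and Rps19-ps3 (chr4:147821777-147822202) 140649. Rpl35 (chr2:39001581-39005131) held 351541 units, Gm2000 (chr1:156366040-156366484) 194762 and Gm4342 (chr8:123853798-123854242) 87700. By the study's methods only primary STAR alignments, chosen by mapping quality, were kept, which does not say how a read that fits a gene and its copies equally was placed. The value of a member with copies is therefore uncertain. Results are given for the gene rows and, where it changes them, with the copies added.

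The start sites of the members were compared with the TOP pattern. RefSeq promoter windows were at hand for 60 members. A run of at least 6 pyrimidines opening with C, within 3 bases of the start on the gene's strand, was found in 23 of these 60 members (38.3%), against 8.53% of 27025 genes in the table. Windows of 4 members with the run and a high share of RP units are shown, each as 30 bases from 10 before the start, with the run in capitals.
Rpl35: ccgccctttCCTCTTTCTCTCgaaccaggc
Rps24: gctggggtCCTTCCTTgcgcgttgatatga
Rpl35a: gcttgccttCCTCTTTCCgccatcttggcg
Rplp2: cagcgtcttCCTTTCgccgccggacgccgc

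These windows lie at chr2:39005112-39005141 (minus strand), chr14:24490668-24490697, chr16:33056472-33056501 and chr7:141447641-141447670 (plus strand) of GRCm38.p6. The run was 12, 8, 9 and 6 bases long. A match is a description of these letters only.

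The libraries differed in size and make-up. The 30 libraries held 27 to 934 barcodes and 217494 to 7886790 units, and the 8282 barcodes had 4590 distinct profiles, so many barcodes shared all their smoothed values. Of 8255 barcode sequences, 13 occurred in more than 1 library. Titles carry CIA or 2CIA after the mouse number, a suffix of unstated meaning that was taken to mark library batches, and some titles close with a further mark of unstated meaning that was not used. Every blood library of a CIA mouse had the suffix 2CIA, and in spleen, thymus, lung, muscle and skin the suffix and the state cannot be told apart. Genes of the erythroid list held 3.58% to 51.7% of the units of a mouse's blood. The healthy muscle library had 0.00816% of its units in the skeletal muscle list, against 0.517% in the CIA library. The alveolar epithelium list held 0.666% and 0.185% of the units of healthy and CIA lung.

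The signal was spread unevenly over the members. The 10 members with the most units held 47.1% of all RP units, and 56 of 80 members were above 0 in every library. Averaged over the organs, Rps19, which is mutated in an inherited red-cell anaemia, held 8.46% of RP units, Rpl41, the smallest RP, 7.43%, Rps14 7.08%, Rpl32 5.72% and Rpl35 5.08%. The lowest were Rpl3l with 0.00624%, Rpl29 with 0.00724%, Rpl10l with 0.0129%, Rpl28 with 0.0157% and Rpl24 with 0.0192%. Levels were not divided by gene length, since Seq-Well reads come from the 3′ end. Of the low members, Rpl29 had 17 matched copies with 18657 units against its own 637, and Rpl24 had 2 copies with 60961 against 1326. With copies added, Rpl24 moved from rank 76 to 65, and Rps19 stayed at rank 1.

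**Figure D1:**
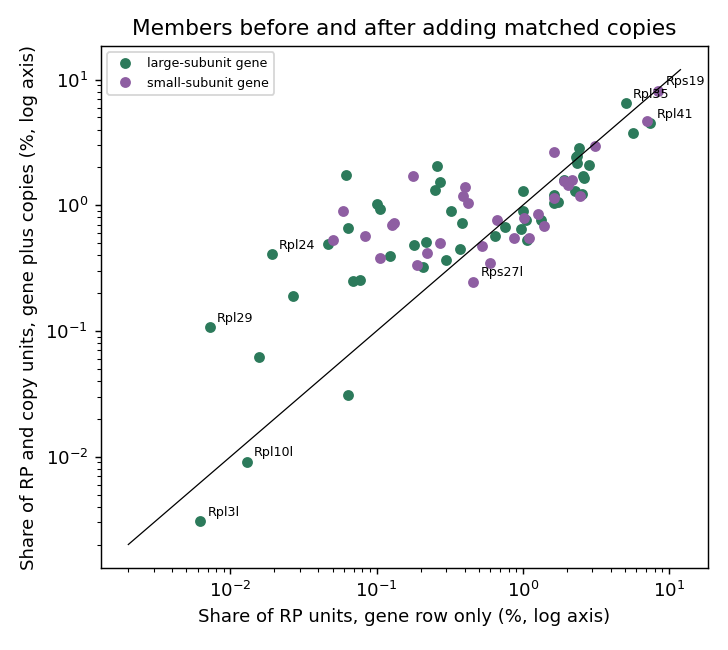
Each point is 1 of 80 RP genes, with its mean share over 8 organs of RP units on the x axis (gene rows only) and of RP and copy units on the y axis (gene plus matched pseudogene copies), both in percent on log axes; the line marks equal shares. Rps19 stays the highest at 8.46% and 8.16%, while low members such as Rpl29 (0.00724% and 0.107%) lie far above the line.

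The paralogs Rpl3l, Rpl10l and Rpl39l were listed at 0 in part of the libraries. Rpl3l, the Rpl3 paralog of heart and skeletal muscle, was listed at 0 in both muscle libraries and in 24 of 30 libraries in all. Rpl10l, known from testis, was listed at 0 in 12 libraries. Rpl39l, also best known from testis, made up 0.302% of RP units in lung, 0.137% in spleen and 0.0008% in blood and was listed at 0 in 17 libraries. Its organ means rested on single mice, with 430 UPM (units scaled to a total of 1000000 per mouse and organ) in CIA lung against 58.6 in healthy lung, and 332 in healthy spleen against a listed 0 in CIA spleen. Rpl39 itself made up 1.48% in lung, 1.69% in spleen and 1.53% in blood.

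Rps27l, a paralog of Rps27 that p53 induces, varied most between organs among the 69 members with at least 50 units in every organ. Its share of RP units was 0.0816% in lymph node and 0.138% in blood, and it was 0.206% in spleen, 0.494% in thymus, 0.590% in joint, 0.598% in muscle, 0.754% in lung and 0.815% in skin. In UPM Rps27l stood at 932 in healthy and 936 in CIA skin and at 670 and 612 in thymus. In lymph node it was 54.7 in H6, 54.7 in H7, 71.9 in H4 and 144 in H3, and 78.2, 120 and 150 in S2, S7 and S1. Every lymph node value was thus below both skin and both thymus values. The range over organs was 3.32 on the log2 scale, and 3.94 with copies added. Rps27a, which is made as a fusion with ubiquitin, followed with a range of 2.04 (0.387% in lymph node and 0.0943% in spleen), which became 1.20 with copies added. Rps28, Rpl10 and Rpl23a followed with ranges of 1.83, 1.83 and 1.80, which became 0.69, 1.43 and 1.33 with copies added.

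RP genes took a larger share of units in healthy thymus, spleen and lymph node than in healthy joint. Healthy thymus stood at 13.3%, muscle at 12.8%, spleen at 12.1%, skin at 11.2%, lung at 8.22% and joint at 6.26%, with 1 mouse each. Healthy lymph node averaged 11.2% ± 1.248 (SD, n = 4) and healthy blood 8.21% ± 2.07 (SD, n = 4). Thymus, muscle, spleen and skin lay within 2 SD of the lymph node mean, so their order is not resolved. With copies added, healthy thymus (20.3%), muscle (20.4%), skin (21.1%) and spleen (25.8%) lay below every healthy lymph node mouse (27.6% to 40.2%). The small-subunit genes held 0.621 to 0.805 units per large-subunit unit over all mice and organs.

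**Figure D2:**
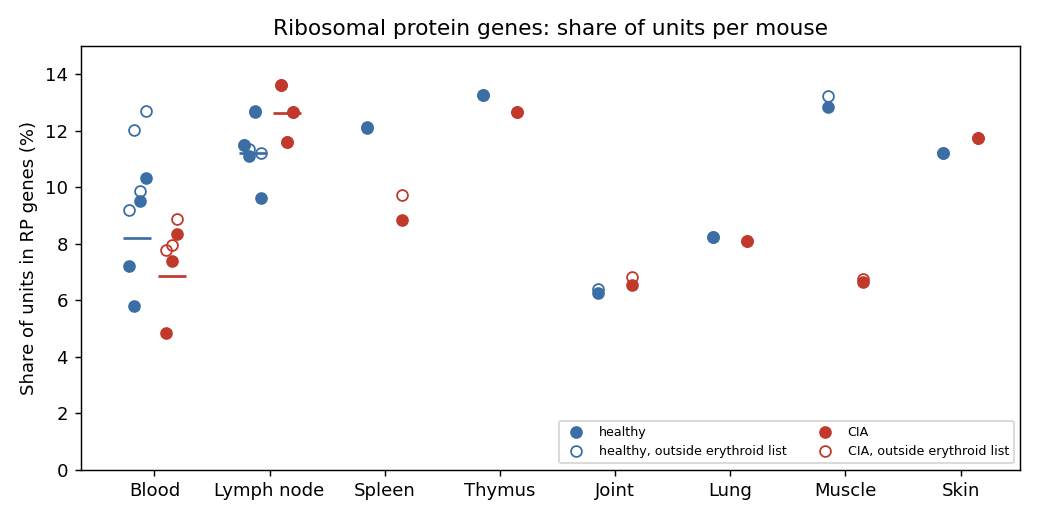
The share of units in the 80 RP genes (y axis, percent) is shown per mouse in each organ (x axis), blue for healthy and red for CIA; filled points use all units, open points the units outside the erythroid list, and lines are means where a group has more than 1 mouse. In blood the filled points of the states overlap (4.84% to 8.36% in CIA, 5.81% to 10.3% in healthy) and the open ones do not.

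In blood the question was whether RP genes differ between CIA and healthy mice. The RP share was 4.84% in S2, 7.39% in S6 and 8.36% in S7, and 5.81% in H4, 7.21% in H3, 9.50% in H6 and 10.3% in H7. The groups overlapped, and the difference of -1.34 percentage points was smaller than the pooled SD between mice of 1.97. It was -0.332 points without S2, -0.643 without H7, -2.09 without S7 and -2.14 without H4. Outside the erythroid list the share was 7.79%, 7.95% and 8.88% in the CIA mice and 9.19% to 12.7% in the healthy mice, with no overlap. In libraries of the suffix 2CIA alone the healthy values were 9.19% and 10.7%, still above the CIA mice. Over all units of those libraries the healthy values were 7.21% and 4.70%, and the difference turned to 0.908 points. When the neutrophil list was also left out, the highest CIA mouse (9.64%) lay above the lowest healthy mouse (9.21%). Neutrophil genes held 6.38% and 7.39% of units in S2 and S7, against 0.523% in S6 and 0.166% to 0.543% in healthy mice, and their part in the difference was not tested. In these pooled values fewer cells of a type and less RNA per cell cannot be told apart.

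With copies added the order in blood changed. RP genes and copies outside the erythroid list together held 13.8%, 29.5% and 28.5% in S2, S6 and S7, and 23.4% to 31.3% in healthy mice, so the groups overlapped. Over all units the difference with copies was 0.471 points, the opposite direction to the gene rows. Outside the erythroid list the CIA mean with copies lay below the healthy mean, the same direction as the gene rows. The ratio of copy to gene units was 0.776, 2.71 and 2.21 in S2, S6 and S7 and 0.889 to 2.17 in healthy mice.

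**Figure D3:**
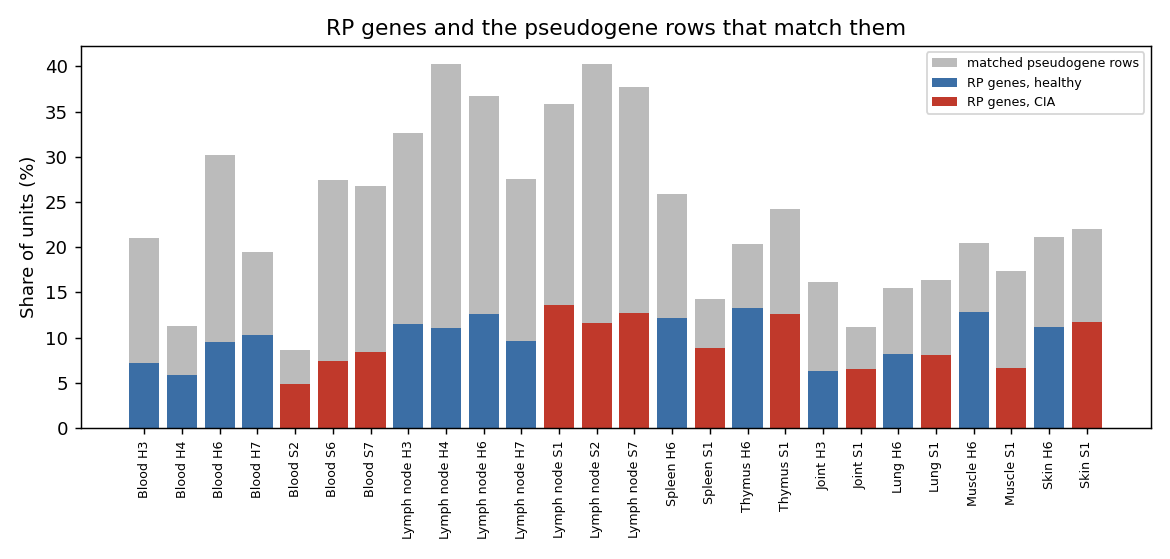
Bars give, for each mouse and organ (x axis), the share of units (y axis, percent) in RP genes (blue for healthy, red for CIA) with the matched pseudogene rows stacked on top in grey. Genes and copies together reach 40.2% in the lymph node of S2 and of H4, and 8.59% in the blood of S2.

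Single RP genes did not pass the test in blood. Of 72 members tested by limma 0 were called at an adjusted p under 0.05, against 0.128% of the 4704 genes tested. On simulated blood a log2 change of 2 was recovered in 0% of cases. Member differences ran from -2.08 to 0.75, so the lack of calls does not show that members were unchanged. At an unadjusted p under 0.05 there were 8 members, all lower in CIA, which is 11.1% of members against 9.82% of all genes. This share was 36.1% against 15.1% without H3 and 1.39% against 4.43% without H7. Scaling to the RP total gave 0% against 9.05%, but that scaling removes any change shared by the RP genes and cannot show one. The median log2 difference was -0.75 over members and -0.55 over all genes tested. These medians were -0.07 and 0.12 when values were scaled to the RP total, and 0.07 and 0.36 in the libraries of the suffix 2CIA. With copies added they were nearly equal at -0.53 and -0.52, and with a pseudocount of 1 they were -0.81 and -0.84. The member median lay below that of all genes in every setting except the pseudocount of 1. Rpl38, which has been tied to the translation of Hox mRNAs, stood at 262, 380 and 448 scaled UPM in S6, S2 and S7 and at 603, 926, 1118 and 1130 in H3, H4, H6 and H7. Every CIA mouse was below every healthy mouse, and the log2 difference by limma was -1.34 (SE 0.58, adjusted p 0.492). Rpl19 stood at 86.3, 104 and 187 in the CIA mice and at 312 to 408 in the healthy mice, and limma gave a difference of -1.46 on the log2 scale (SE 0.63, adjusted p 0.492). In unscaled UPM the groups of both genes overlapped, with or without copies. With copies added the limma differences were -1.01 for Rpl38 (adjusted p 0.510) and -0.64 for Rpl19 (adjusted p 0.705). In all, 7 of 72 members had groups that did not overlap, against 8.91% of all genes.

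In lymph node the shares of the states overlapped too. The RP share was 11.6%, 12.7% and 13.6% in S2, S7 and S1, and 9.63%, 11.1%, 11.5% and 12.6% in H7, H4, H3 and H6. The difference was 1.40 percentage points against a pooled SD of 1.16, and it was 0.873 points without H7 and 0.911 without S1. H7, the lowest, had 14.1% of its units in the erythroid list, against 0.00953% to 2.15% in the other healthy nodes. Outside that list the difference was 0.941 points, and with copies added over all units it was 3.62 points.

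Of 74 members tested in lymph node, limma called 0 at an adjusted p under 0.05, against 0.0198% of 5060 genes. At an unadjusted p under 0.05 there were 4 members, 3 higher and 1 lower in CIA, which is 5.41% of members against 4.23% of all genes. The median log2 difference was 0.18 over members and 0.09 over all genes, and -0.03 and -0.10 when scaled to the RP total. Rpl41 stood at 6397, 7728 and 8332 scaled UPM in S2, S7 and S1, and at 4852, 5037, 5154 and 5677 in H4, H3, H7 and H6. The groups did not overlap, and limma gave a difference of 0.52 on the log2 scale (SE 0.14, adjusted p 0.904). Rps19 stood at 11100 to 13205 in CIA and 8244 to 10274 in healthy mice, and limma gave a difference of 0.36 on the log2 scale (SE 0.12, adjusted p 0.962). In unscaled UPM the groups overlapped for Rps19 with or without copies, and for Rpl41 only with copies (8203 to 11531 in CIA and 6874 to 8343 in healthy mice). With copies added the limma differences were 0.48 for Rpl41 and 0.32 for Rps19 (adjusted p 0.926 for each). In all, 9 of 74 members had groups without overlap, against 6.17% of all genes.

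Healthy lymph node was then compared with healthy blood of the same mice. The RP share was higher in node by 4.29 points in H3, 5.29 in H4 and 3.15 in H6, while in H7 the difference was -0.683 points. The mean difference was 3.01 points. Outside the erythroid list it was 0.746 points, with node higher in H3 and H6 and lower in H4 and H7. With copies added, node was higher in 4 of 4 mice, by 6.58 to 29.0 points. Of 74 members limma called 0 at an adjusted p under 0.05, against 0.0401% of 4990 genes. By the unadjusted p 5 members passed 0.05, all higher in node, which is 6.76% of members against 14.9% of all genes. The median log2 difference was 0.23 over members and 0.09 over all genes. These medians were -0.12 and -0.29 in libraries of the suffix CIA alone, 0.95 and 0.82 in those of the suffix 2CIA, and 0.67 and 0.12 with copies added. Rpl9 stood at 210 to 263 scaled UPM in node and at 65.7 to 189 in blood, with no overlap (log2 difference 1.13, SE 0.39, limma adjusted p 0.253). Rpl15 stood at 67.8 to 99.9 in node and at 5.82 to 43.8 in blood (log2 difference 1.32, SE 0.50, limma adjusted p 0.266). In unscaled UPM the groups of both genes did not overlap without copies and did with copies (Rpl9 3724 to 7028 in node and 1394 to 4893 in blood, Rpl15 3980 to 7447 and 1864 to 4411). With copies added the limma differences were 0.73 for Rpl9 (adjusted p 0.522) and 0.78 for Rpl15 (adjusted p 0.505). Groups did not overlap in 4 of 74 members, against 7.62% of all genes.

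**Figure D4:**
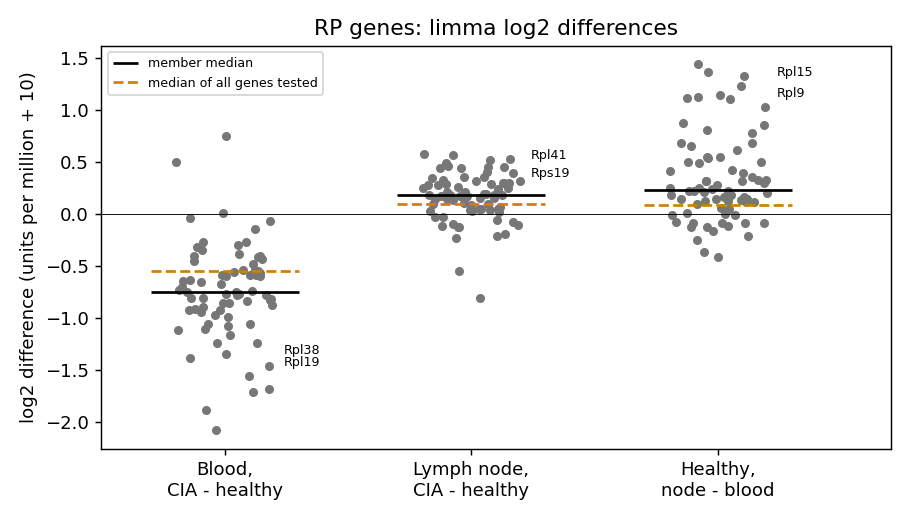
Each grey point is 1 RP gene and its log2 difference (y axis, on UPM + 10) in 3 comparisons (x axis); black lines are member medians, dashed lines medians of all genes tested, and names mark the 2 members with the smallest p. Member medians are -0.75 in blood, 0.18 in lymph node and 0.23 for healthy node against blood, and no member is called.

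The state difference was compared between the organs by the interaction in limma. Of 73 members 0 were called at an adjusted p under 0.05, against 0% of 4857 genes. At an unadjusted p under 0.05 there were 11 members, 15.1% against 8.42% of all genes. That order depended on the setting. It was 9.59% against 7.58% with the mouse as a block and 49.3% against 12.9% without H3. It was 5.48% against 6.92% with median-of-ratios scaling, 4.11% against 9.55% without the mean-variance trend and 4.11% against 5.51% without H4. Scaling to the RP total gave 0% against 8.81%, but it removes any change shared by the RP genes, so no order was read from it. The smallest p belonged to Rpl38 (log2 difference 1.31, SE 0.45, limma adjusted p 0.486) and Rps7 (1.20, SE 0.47, limma adjusted p 0.495), both positive, meaning that CIA minus healthy was larger in node than in blood. The CIA mice were not all the same in both organs, with S6 in blood only and S1 in node only. Organ is therefore mixed with mouse and arthritis score in this comparison.

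The organs with 1 mouse per state are given as values. The RP share went from 12.1% in healthy to 8.84% in CIA spleen and from 12.8% to 6.65% in muscle. It was 13.3% and 12.7% in thymus, 8.22% and 8.08% in lung, 11.2% and 11.7% in skin, and 6.26% and 6.55% in joint. With copies added the share went from 20.3% to 24.2% in thymus, from 15.4% to 16.4% in lung and from 16.1% to 11.1% in joint, each the opposite direction. The joint difference also turned as a mean over barcodes (-0.264 points) and with each distinct profile once (-0.816), and the lung difference with each distinct profile once (0.0861). The spleen of S1 had 9.87% of its units in the neutrophil list, against 0.445% in H6, and the difference was -1.248 points outside the erythroid and neutrophil lists. The muscle libraries differed in cell make-up: the healthy one had 10.7% neutrophil and 0.850% B cell genes, the CIA one 1.87% and 0.281%. The part of these cells in the differences was not tested. Both joint libraries of S1 were measured, at 6.35% (2CIA) and 9.27% (CIA), a gap of 2.92 points, larger than the difference between states in joint.

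Members were also compared as a share of RP units in these organs. In joint 1 of 73 members was over 2-fold higher and 6 lower in CIA, against 3.20% and 35.2% of all genes with at least 50 units in both libraries. In spleen it was 1 and 8 of 72 members against 10.9% and 19.3%, and in thymus 3 and 5 of 77 against 16.4% and 7.89%. In lung it was 1 and 4 of 59 against 6.81% and 17.3%, in muscle 10 and 3 of 58 against 73.0% and 1.18%, and in skin 1 and 3 of 71 against 7.84% and 8.72%. The figure for all genes is also per RP unit, so it moves with the RP share itself (12.8% and 6.65% in muscle), and nothing was read from it. Between pairs of healthy mice 1 to 9 members differed over 2-fold either way in blood and 1 to 6 in lymph node. Rps28 had the largest ratio in 3 organs. Its log2 ratio of CIA to healthy was -2.20 in joint and -2.19 in spleen but 3.45 in muscle, and with copies added it was -0.96, -0.80 and 0.86. In lung the log2 ratio was 1.90 for Rpl27a (1.31 with copies added) and -1.38 for Rpl17 (-0.92). In thymus it was 1.78 for Rpl10 (1.21) and -1.82 for Rps16 (-0.77). In skin it was 1.36 for Rps12 (0.84) and -1.76 for Rpl12, which became 0.15. For Rps27l it was 2.26 in muscle (1.72 with copies), 1.76 in spleen (2.08) and 0.93 in joint (1.58), but -0.40 in lung (-0.40), -0.06 in skin (-0.08) and -0.06 in thymus (-0.33).

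The RP share differed between barcodes with different marker genes. Barcodes were sorted by summed UPM of marker lists into sets, which are ranges rather than cell types. Since a barcode rich in marker units has fewer units left for other genes, the choice of a set itself lowers its RP share. In 9 mouse and organ pairs with at least 10 such barcodes, T-marker barcodes had an RP share of 12.1% to 21.2% (median 13.3%). B-marker barcodes had 7.07% to 15.5% (median 9.63%, 20 pairs), fibroblast-marker barcodes 5.50% to 6.35% (median 6.10%, 4 pairs), erythroid-marker barcodes 2.65% to 8.97% (median 4.87%, 9 pairs) and neutrophil-marker barcodes 2.09% to 7.65% (median 3.96%, 7 pairs). Within the same mouse and organ, B-marker barcodes were above neutrophil-marker barcodes in 7 of 7 pairs, by 3.33 to 9.66 points, and below T-marker barcodes in 7 of 7 pairs. B-marker barcodes were above erythroid-marker barcodes in 7 of 7 pairs, and in 6 of 7 outside the erythroid and neutrophil lists. Outside those lists the medians were 13.3% for T-marker, 9.91% for B-marker, 8.9999% for erythroid-marker, 6.19% for fibroblast-marker and 5.44% for neutrophil-marker barcodes, so the erythroid set moved from below to above the fibroblast set. In lymph node, T-marker barcodes had 12.1% to 14.5% in the 4 healthy mice and B-marker barcodes 9.21% to 9.66%. In CIA, T-marker barcodes had 12.5% in S2 and 13.7% in S7, within the healthy range, and B-marker barcodes had 12.9%, 10.8% and 11.3% in S1, S2 and S7, each above every healthy mouse. The B-marker set of the H6 node had only 17 barcodes. Elsewhere B-marker barcodes had 12.2% in CIA and 12.9% in healthy spleen, 8.33% and 15.5% in muscle, and 8.49% and 8.80% in lung. In joint they had 10.2% in CIA and 7.07% in healthy. In blood they had 8.02% and 9.36% in S6 and S7 and 9.34% to 11.6% in healthy mice, which overlap. Many barcodes lay within a factor of 5/4 of a limit (1214 for the T and 900 for the B set), and smoothed neighbours share values, so no test was made.

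**Figure D5:**
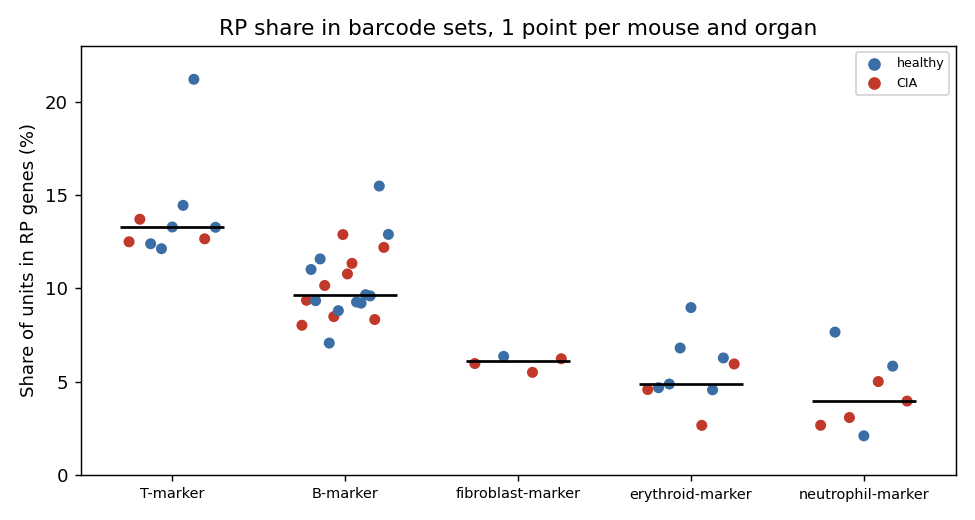
Each point is the RP share (y axis, percent of units) of 1 barcode set (x axis) in 1 mouse and organ, blue for healthy and red for CIA, with the median as a line. Medians run from 13.3% in T-marker to 3.96% in neutrophil-marker barcodes, and the marker genes that define a set are among the units counted.

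Other genes of the translation machinery were counted beside the members. Of the list of translation factors and other TOP mRNAs, limma called 0 of 21 tested genes in blood, 0 of 22 in lymph node and 0 of 20 for healthy node against blood, while 4, 0 and 0 had an unadjusted p below 0.05. Of all genes tested, 9.82%, 4.23% and 14.9% had such a p in these comparisons. Eef1b2, a subunit of the elongation factor 1 exchange complex, had the smallest p in blood (log2 difference -1.99, SE 0.61, limma adjusted p 0.226). Of the ribosome biogenesis list 0 of 11, 0 of 14 and 0 of 13 were called (2, 0 and 1 by the unadjusted p), and the median log2 difference over the 11 genes in blood was -1.13, against -0.67 for the translation factor list, -0.71 for the mitochondrial RP genes and -0.55 over all genes. For ribosome biogenesis it was 0.19 in lymph node and -0.18 for node against blood, against 0.09 over all genes in each. Of the mitochondrial RP genes, a separate family that builds the mitochondrial ribosome, 0 of 31, 0 of 43 and 0 of 39 were called (2, 2 and 0 by the unadjusted p). Mrpl33 had the smallest p of that family in blood and was higher in CIA (log2 difference 1.97, SE 0.64, limma adjusted p 0.321). For the interaction limma called 0 of 20 translation factor, 0 of 13 biogenesis and 0 of 38 mitochondrial RP genes. By the unadjusted p 2, 5 and 2 passed 0.05, against 8.42% of all genes. The median log2 differences were 0.53, 1.11 and 0.76, against 0.53 over all genes. Only the main setting was used for these lists. Mitochondrial RP genes held 0.740% and 0.745% of units in healthy and CIA thymus and 0.113% to 0.284% in healthy blood.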

How the data were processed

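The authors aligned Seq-Well reads to the mouse genome with STAR, keeping primary alignments, after bcl2fastq and Picard, counted unique molecular identifiers, filtered cells and smoothed the pilot libraries over nearest neighbours. The deposited values are whole-number smoothed signal per gene and barcode, not counts, so no counting interval was derived; 0 columns lacked a sample. Totals per barcode ran from 4373 to 36435 units (median 7615).

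Units were summed per mouse and organ. Gene rows (Entrez numbers) took symbols and positions from RefSeq GRCm38.p6, which matched 21404 rows. RP shares are member units over all units and got no test. Single genes were tested with limma 3.58.1 in R 4.3.3 on log2(UPM + 10), after scaling by a trimmed mean of log ratios (30% and 5% trimmed on each side) and a filter of a mean of 25 UPM, allowing the variance to follow the mean. All p-values are two-sided, with Benjamini-Hochberg adjustment over all genes tested. A log2 difference on this scale understates low genes. Pseudogene rows were matched with BLAST+ 2.17.0 (at least 90% identity, 70% of the row's GENCODE M21 transcript, 100 bases). Tables were made with Python 3.11.15, numpy 2.4.6 and pandas 2.3.3. Barcode sets used limits of 100000 (erythroid), 50000 (neutrophil), 20000 (fibroblast) and 1500 UPM (T and B, with a 2-fold lead).

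On simulated mice with no gene changed limma called 0 genes. Genes changed by 2, 3 and 4 (log2) were recovered in 0%, 36.1% and 67.9% of cases in blood (4704 genes), 66.7%, 87.9% and 98.2% in lymph node (5060 genes) and 53.9%, 77.7% and 91.6% for healthy node against blood (4990 genes). Unchanged genes were called too: 0, 2 and 4 beside 0, 61 and 108 changed ones in blood. They were 5, 10 and 10 beside 118, 145 and 166 in lymph node, and 0, 12 and 9 beside 89, 122 and 141 for node against blood. Each gene was drawn independently, so shifts shared by many genes were not simulated.

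The mouse pairs healthy blood and node, since both came from the same animal. Named members were the 5 highest and 5 lowest, the called members of a test or else the 2 with the smallest p, the 2 per direction with the largest ratio in organs with 1 mouse per state, the 5 most variable over organs, and paralog pairs; not all are printed. Members and lists were chosen with earlier results of these data known. Alternatives covered scaling, pseudocount, filter, trend, members, barcodes, suffix and left-out mice.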

Additional observations from a re-analysis of the deposited data

Results flagged for a closer look

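In the lymph node of H4 the matched pseudogene copies held 2.63 units per RP gene unit, while the other healthy nodes lay between 1.83 and 1.90, a gap large for the range of a group of 4 by Dixon's test. Both libraries of that node gave it, at 2.65 and 2.61. Of 20 sets of 4 values examined (several measures in the healthy blood and the healthy nodes) 1 was marked, and chance marks about 1 in 20.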

How the results depend on the processing

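All 71 alternatives for the counts of called RP genes gave 0 members by limma, the leave-one-out fits (0 to 0) and the mouse as a block included. Scaling to the RP total takes out any change shared by the members, so its counts cannot speak to one. Members at an unadjusted p under 0.05 ranged from 0 to 26 in blood (26 without H3, 36.1% against 15.1% of all genes, and 0 with RP-total or total-only scaling, against 9.05% and 9.13%), 0 to 9 in lymph node (9 with every library its own sample, 12.2% against 4.48%, and 0 with no filter, against 3.43%), 1 to 29 for healthy node against blood (1 without H4, 1.35% against 4.99%; 29 in 2CIA libraries, 39.2% against 20.3%; 14 with copies added, 18.2% against 12.2%; 7 with the mouse as a block, 9.46% against 13.8%) and 0 to 36 for the interaction (36 without H3, 49.3% against 12.9%, 20 without S2, 27.4% against 17.0%, 7 with the block, 9.59% against 7.58%, 1 with total-only scaling, 1.37% against 7.82%, and 0 with RP-total scaling, against 8.81%). With the mouse as a block 9 genes in all were called for node against blood instead of 2. Since every healthy mouse gave both organs, the mean RP share difference within mice equals the 3.01 points by construction.

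RP share differences kept their direction in 80 of 88 alternatives, a count that includes the mouse as a block, which could not change the value. In blood (CIA minus healthy) the difference became 0.908 points in 2CIA libraries and 0.471 with copies added, and ran from -2.14 to -0.332 over left-out mice. Outside the erythroid list it stayed negative in 2CIA libraries and with copies added. In lymph node it was 3.62 with copies and 0.873 to 1.92 over left-out mice. For healthy node minus blood it was 0.746 outside the erythroid list, 0.713 outside the erythroid and neutrophil lists, 0.502 in barcodes under 50000 UPM of the erythroid list, 5.56 in 2CIA libraries and 13.8 with copies, and 2.25 to 4.24 over left-out mice. In organs with 1 mouse per state, changes were judged against the spread between lymph node mice. Outside the erythroid and neutrophil lists spleen gave -1.248 and muscle -7.96. With each distinct profile once, spleen gave -1.56, joint -0.816, lung 0.0861, muscle -7.69 and skin 2.29. As a mean over barcodes joint gave -0.264. With copies spleen gave -11.6, thymus 3.88, joint -5.00, lung 0.917 and muscle -3.09. The cause of these changes was not tested. Alternatives with copies added, the suffix CIA alone, and copies or 2CIA libraries outside the erythroid list were chosen after seeing the data. Depth could not be turned into counting error, because the signal is smoothed.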
